A study of Mus musculus with 12 samples.

Results

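Schlafen and interferon-induced PARP genes are antiviral and growth-control genes, and 10 of them were followed here by their gene symbols among the 25919 rows of the count table. The Schlafen members are Slfn1, Slfn2, Slfn4, Slfn5 and Slfn8, and the others are Parp9, Parp10, Parp12, Parp14 and Dtx3l. Of the 10, 9 had a row, 8 had a count in at least 1 of the 6 libraries compared, and 7 passed the filter on low counts and were tested. Slfn8 is not analysed here.

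The data are 3'-end counts of poly(A) RNA from the liver of C57BL/6 mice aged 7 weeks. The tested libraries were labelled CD40 at day 2 (4 libraries, a to d), after a receptor of antigen-presenting cells, and were set against libraries labelled Kupffer cells (liver macrophages) at day 0 (2 libraries, a and b). No genotype, allele, agent or sort is given for either group, nor the event from which the days are counted, nor whether a library came from 1 animal. The p-values thus rest on the spread of the libraries within a label, which could be technical, and label and day differ together. The columns of Kupffer cells at day 7 (2 libraries) and of Ly6C CD40-negative cells at day 2 (4 libraries) were not read by gene, because the first column of each runs downward along the table with only 1 step up, as Kupffer day 0 a does with 0, so their values appear to be sorted apart from the gene names.

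Schlafen proteins are found in vertebrates, and many of their genes are switched on by type I interferon. The mouse genes lie side by side in 1 cluster. The short proteins, such as Slfn1 and Slfn2, hold little more than the core domain of the family, and the long ones, such as Slfn5 and Slfn8, add a helicase-like part. PARP proteins carry the fold that moves ADP-ribose from NAD onto other molecules. The interferon-induced members attach single ADP-ribose units or, like Parp9, act mainly through macrodomains that bind them, and Dtx3l is the ubiquitin ligase that pairs with Parp9.

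Total counts were 725683 to 2271228 in the CD40 day 2 libraries, and 688498 and 1612435 in the Kupffer day 0 libraries. Levels are given as CPM, counts scaled to a common library size after TMM adjustment, and 1 count was worth 0.455 to 1.41 CPM in CD40 day 2 and 0.574 and 1.39 CPM in Kupffer day 0. The labels were checked against markers. Cd40 averaged 330 ± 72.6 CPM in CD40 day 2 (SD, n = 4) and 19.1 ± 1.41 CPM in Kupffer day 0 (SD, n = 2). Ly6c2, the monocyte surface marker gene, averaged 7090 ± 1220 CPM in CD40 day 2 and 585 ± 89.1 CPM in Kupffer day 0. Clec4f, a Kupffer cell lectin gene, averaged 17.2 ± 3.61 CPM in CD40 day 2 and 1070 ± 74.3 CPM in Kupffer day 0. The 7 liver endothelial markers together reached 170 to 413 CPM in CD40 day 2 and 11000 and 12400 CPM in Kupffer day 0, where the 7 Kupffer cell markers reached 3320 and 3600 CPM, against 69.6 to 86.5 CPM in CD40 day 2. All 7 endothelial markers and 6 of 7 Kupffer markers passed the test as lower in CD40 day 2. The part of these other cells in the differences below was not tested, and in bulk RNA fewer cells of a type and less RNA per cell cannot be told apart.

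Of the 7 members tested, 4 were higher in CD40 day 2 by edgeR's quasi-likelihood test (adjusted p under 0.05), namely Slfn2, Parp12, Parp9 and Parp10. Of all 9852 genes tested, 23.2% were called higher, 30.2% lower and 53.4% in either direction, so a call by itself does not set a member apart. No member was called lower (0 of 7, also 0 at an unadjusted p under 0.05 and 0 by DESeq2, which called 3 higher). The libraries of the groups did not overlap for 5 of 7, all higher in CD40 day 2, where 29.7% of all genes tested lay higher without overlap, 36.9% lower and 66.6% in either direction. Log2 fold changes of the 7 went from -0.18 to 3.41 with a median of 1.13, beside a median of -0.10 over all genes tested. Slfn2 and Dtx3l passed the filter (10 counts at the median library total, in 2 libraries) through their CD40 day 2 counts alone, so this median and these counts describe the tested members only and are no support.

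**Figure D1:**
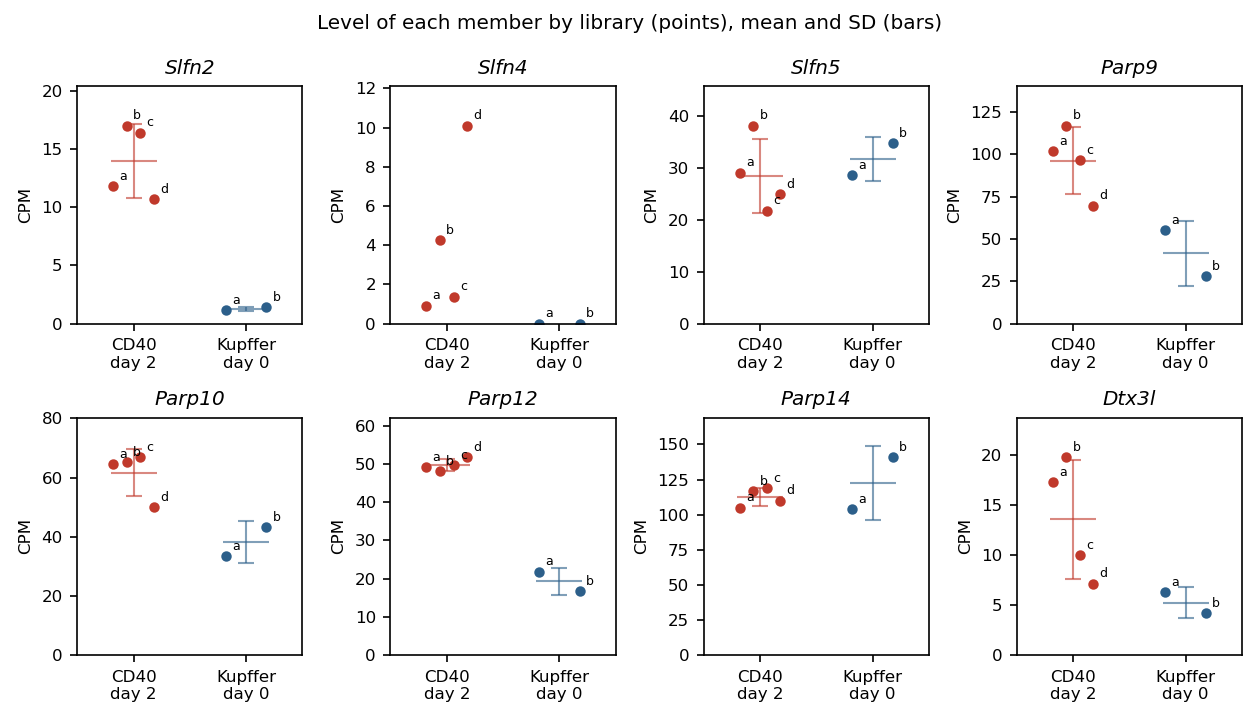
Level in CPM (vertical axes from 0) of the 8 members with a count, by library (points with letters), CD40 day 2 at the left and Kupffer day 0 at the right; bars are the mean and SD, left out for Slfn4, whose SD exceeds its mean. Slfn2, Slfn4, Parp9, Parp10, Parp12 and Dtx3l show no overlap between groups, while Slfn5 and Parp14 overlap. For Slfn4, which was not tested, this rests on 1 count in CD40 day 2 a against 0 in Kupffer day 0. Of all genes tested, 29.7% lay higher in CD40 day 2 without overlap.

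Of the Schlafen genes, Slfn2 was called higher, Slfn5 did not pass the test, and Slfn4 and Slfn1 were not tested. Slfn2, a short Schlafen that keeps T cells and monocytes quiescent in mice, was at 11.8, 17.0, 16.4 and 10.7 CPM in CD40 day 2 (13, 12, 36 and 18 counts) and at 1.15 and 1.39 CPM in Kupffer day 0 (2 counts and 1 count). Every CD40 day 2 library stood above both Kupffer day 0 libraries. With 79 counts against 3, the ratio was 11.4 with a counting interval of 3.76 to 56.5 (95%, exact binomial, counting error only). The fitted log2 fold change was 3.41 ± 0.56 SE (edgeR adjusted p = 0.000637), and its adjusted p over the 12 alternatives was 5.24e-06, with no filter on low counts, to 0.0255. Since Slfn2 passed the filter through CD40 day 2 alone, its call among the filtered genes is a description. Among the CD40 day 2 libraries the variance of Slfn2 was 1.0 times that of counting alone.

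Slfn5, a long nuclear Schlafen whose human counterpart has been described as a repressor of interferon-induced transcription, was at 29.1, 38.2, 21.8 and 25.0 CPM in CD40 day 2 and at 28.7 and 34.8 CPM in Kupffer day 0, and the groups overlapped. The log2 fold change of -0.18 ± 0.28 SE did not pass the test (edgeR adjusted p = 0.607), and its 95% interval of -0.80 to 0.44 leaves room for a change of either sign. The ratio of Slfn2 to Slfn5 within a library does not depend on scaling. It was 0.406, 0.444, 0.750 and 0.429 counts of Slfn2 per count of Slfn5 in CD40 day 2, and 0.040 in each Kupffer day 0 library.

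Slfn4, a Schlafen of myeloid cells in mice, held 1, 3, 3 and 17 counts in CD40 day 2 (0.910, 4.24, 1.37 and 10.1 CPM) and 0 in both Kupffer day 0 libraries. Library d carried 17 of the 24 counts, and the variance among the CD40 day 2 libraries was 6.98 times that of counting alone. Against a floor of 3 counts over the Kupffer day 0 group, the level of Slfn4 over the CD40 day 2 group was 3.46-fold higher. The floor allows for counting error in Kupffer day 0 only, and the 24 CD40 day 2 counts are taken as exact. This ratio rested on single libraries, by an alternative chosen after seeing the data. It was 1.43-fold without CD40 day 2 d, 1.01-fold without Kupffer day 0 a and 2.45-fold without Kupffer day 0 b. Slfn4 did not pass the filter of the reported fit. With no filter it was called (edgeR adjusted p = 0.00268), and without Kupffer day 0 a or b it was not (0.262 and 0.116). Neutrophils also express Slfn4 in mice. The 7 neutrophil markers together stood at 1340, 887, 1570 and 1800 CPM in CD40 day 2 and at 878 and 3010 CPM in Kupffer day 0, and none was at 0. The sum was highest in Kupffer day 0 b, with 0 Slfn4 counts, and within CD40 day 2 in library d, with 17. Most of it was S100a8, at 1330 CPM in CD40 day 2 d and 1870 CPM in Kupffer day 0 b. The part of neutrophils in the Slfn4 counts was not tested.

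Slfn1, a short Schlafen that slows the growth of thymocytes, had 0 counts in all 6 libraries. That allows levels of up to 2.73, 4.24, 1.37 and 1.79 CPM in CD40 day 2 and 1.72 and 4.18 CPM in Kupffer day 0 (3 counts per library). The T cell markers, 7 genes, summed to 14.6 to 43.9 CPM in CD40 day 2 and to 14.4 and 23.7 CPM in Kupffer day 0. Most of the 43.9 CPM, in CD40 day 2 b, was Cd8a at 29.7 CPM. Cd3e and Cd3g were at 0 in that library and Cd3d at 2.83 CPM. Of the other Schlafen genes, Slfn9 held 3, 0, 11 and 5 counts in CD40 day 2 and 4 counts and 1 count in Kupffer day 0, and Slfn14 held 0 in all 6. Neither was tested, and Slfn3, Slfn10-ps and Slfnl1 are not analysed here.

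The Schlafen genes lie within 335 kb of chromosome 11 (GRCm38.p6). Slfn5 is at 82951349 to 82964840, Slfn8 at 83002158 to 83020810, Slfn2 at 83065112 to 83070678, Slfn1 at 83116849 to 83122670 and Slfn4 at 83175186 to 83190216. Slfn8 is on the minus strand and the other 4 members are on the plus strand. Reads of 75 bases could be shared between relatives. In the last 1000 bases of their annotated transcripts, 2.92% of 75-base windows of Slfn2 also occur in Slfn4, none of Slfn4 or Slfn1 occur in another gene, and 0.783% of those of Slfn5 do, in genes outside the family. For Slfn9 the share was 11%, in Slfn8 and Slfn10-ps, which leaves its counts uncertain. An antisense gene, Gm20234, covers the 3' end of Slfn2, and the antisense Slfn5os overlaps Slfn5 away from its 3' end. Whether counting used strand is not given in the sources used here, so reads of such pairs cannot be told apart.

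**Figure D2:**
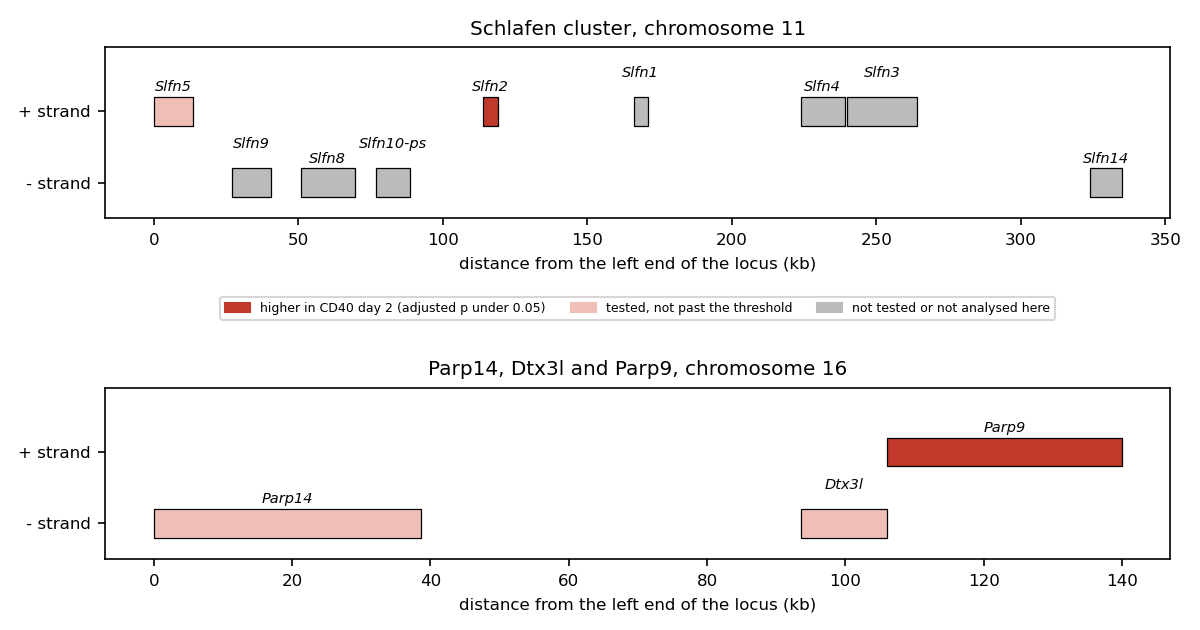
Position of the Schlafen genes (top) and of Parp14, Dtx3l and Parp9 (bottom) by strand, in kb from the left end of each locus, coloured by the edgeR result for the members. Slfn2 is the called member of the first locus, starting 114 kb from its left end, and Parp9 that of the second, while Dtx3l and Parp14 did not pass the threshold.

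The upstream sequences are shown because Slfn2 and Slfn5 lie in 1 cluster and Slfn2 alone of them was called. Type I interferon acts through the interferon-stimulated response element (ISRE), and interferon gamma through the GAS element. RefSeq's table of promoter windows (GRCm38.p6, 250 bases before to 50 after a start) held 7 of the 10 members, and not Parp9, Parp10 or Parp14. Both strands were searched for the ISRE core GAAANNGAAA, for the longer ISRE form GAAANNGAAACT, which contains the core, and for the GAS form TTCNNNGAA. The core was in 3.44% of the 32851 windows, the longer form in 0.271% and the GAS form in 8.30%. No GAS form was in a member's window. The core was in the window of Slfn5, at bases -155 to -146 from the RefSeq start. It was also in both windows of Slfn8, which hold 1 and the same site seen from 2 starts. It was not in those of Slfn1, Slfn2, Slfn4, Parp12 or Dtx3l, which says only that these letters are absent from these windows. The window of Slfn5 lies inside its gene model, which starts at 82951349, upstream of the RefSeq start used here. The 250 bases before the RefSeq start of Slfn2 (chr11:83064862-83065111, plus strand) and Slfn5 (chr11:82951852-82952101, plus strand) read as follows, with the match to the core in capitals.
Slfn2: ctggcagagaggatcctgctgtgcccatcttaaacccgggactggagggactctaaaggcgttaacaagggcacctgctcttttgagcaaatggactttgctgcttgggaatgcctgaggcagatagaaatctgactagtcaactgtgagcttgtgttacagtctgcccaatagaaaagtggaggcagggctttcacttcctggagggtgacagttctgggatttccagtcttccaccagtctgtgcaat
Slfn5: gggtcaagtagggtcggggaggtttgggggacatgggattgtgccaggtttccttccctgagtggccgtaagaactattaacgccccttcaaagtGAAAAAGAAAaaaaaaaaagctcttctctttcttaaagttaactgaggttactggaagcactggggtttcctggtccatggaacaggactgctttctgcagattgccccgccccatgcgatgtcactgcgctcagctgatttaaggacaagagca

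The longer ISRE form was in the windows of Slfn8 and of its relative Slfn9, and in 1 of the 2 windows of Parp11, a PARP gene outside the members. The 60 bases around each match are shown because they allow the relatives to be compared. They lie at chr11:83020824-83020883 (minus strand), chr11:82991841-82991900 (minus strand) and chr6:127446771-127446830 (plus strand), with the core in capitals, here read on the opposite strand.
Slfn8: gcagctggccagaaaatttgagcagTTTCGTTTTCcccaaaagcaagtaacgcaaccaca
Slfn9: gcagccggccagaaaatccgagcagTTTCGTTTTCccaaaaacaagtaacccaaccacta
Parp11: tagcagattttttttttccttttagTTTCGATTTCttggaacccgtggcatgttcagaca
Slfn8 and Slfn9 had 44 of these 60 bases in common, position by position. Of the 3, Parp11 alone was tested, and it was higher in CD40 day 2, as given further on.

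Among the PARP members, Parp12 gave the tightest values. Parp12, a zinc-finger PARP that restricts RNA viruses, was at 49.2, 48.1, 49.6 and 51.8 CPM in CD40 day 2 and at 21.8 and 16.7 CPM in Kupffer day 0. The 4 CD40 day 2 libraries lay within a coefficient of variation of 3.16%, and all stood above both Kupffer day 0 libraries. Their variance was 0.0617 times that of counting alone. That is below what counting error gives on average, so the evenness is not taken as a trait of Parp12. The fitted level was 2.5 times as high, a log2 fold change of 1.32 ± 0.23 SE (edgeR adjusted p = 0.000810), called under all 12 alternatives (adjusted p 0.000157 to 0.0115). Parp12 lies on chromosome 6 from 39086410 to 39118349, minus strand, and no 75-base window at its 3' end occurred in another gene.

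Parp9, a macrodomain protein of interferon responses, was at 102, 117, 96.5 and 69.7 CPM in CD40 day 2 and at 55.1 and 27.9 CPM in Kupffer day 0. No library overlapped, but the Kupffer day 0 libraries lay farther from each other than Kupffer day 0 a lay from CD40 day 2 d. The log2 fold change was 1.13 ± 0.30 SE (edgeR adjusted p = 0.00995). It was 0.79 without Kupffer day 0 b, where the call was lost (adjusted p = 0.0859, with 0.000155 to 0.0859 over all alternatives), and 1.77 without Kupffer day 0 a, where it was kept (0.0108). Parp9 lies on chromosome 16 from 35938470 to 35972605, plus strand, and an antisense gene, Gm15564, covers its 3' end.

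Dtx3l, the ligase partner of Parp9, was at 17.3, 19.8, 10 and 7.15 CPM in CD40 day 2 (19, 14, 22 and 12 counts) and at 6.32 and 4.18 CPM in Kupffer day 0 (11 and 3 counts). The groups did not overlap, with library d of CD40 day 2 close to Kupffer day 0 a. The log2 fold change of 1.16 ± 0.53 SE did not pass the test (edgeR adjusted p = 0.0919, 95% interval -0.03 to 2.35). Without CD40 day 2 d it was 1.39 and passed (adjusted p = 0.0387, with 0.0387 to 0.264 over all alternatives). Dtx3l lies on chromosome 16 from 35926511 to 35939151, minus strand, and overlaps the start of Parp9 by 682 bases. The libraries held 5.89, 5.93, 9.64 and 9.75 counts of Parp9 per count of Dtx3l in CD40 day 2, and 8.73 and 6.67 in Kupffer day 0, so the ratio of the partners differed more within CD40 day 2 than between the groups (difference of the mean log2 ratios -0.01).

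The 250 bases before the RefSeq start of Dtx3l (chr16:35939028-35939277, minus strand) are shown because they lie inside the gene model of Parp9, whose own window is not in the table. Part of them also lies inside the gene model of Dtx3l itself, which begins at 35939151 on the minus strand, upstream of the RefSeq start. Beside them are those of Parp12 (chr6:39118350-39118599, minus strand), a called member with a window in the table. Neither held the ISRE core, so no base is in capitals, and 52.8% and 73.6% of their bases were G or C.
Dtx3l: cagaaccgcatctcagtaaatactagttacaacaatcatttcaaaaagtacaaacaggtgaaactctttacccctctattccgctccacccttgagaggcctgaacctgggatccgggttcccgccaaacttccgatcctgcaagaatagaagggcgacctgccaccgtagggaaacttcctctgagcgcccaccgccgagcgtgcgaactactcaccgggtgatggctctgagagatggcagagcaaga
Parp12: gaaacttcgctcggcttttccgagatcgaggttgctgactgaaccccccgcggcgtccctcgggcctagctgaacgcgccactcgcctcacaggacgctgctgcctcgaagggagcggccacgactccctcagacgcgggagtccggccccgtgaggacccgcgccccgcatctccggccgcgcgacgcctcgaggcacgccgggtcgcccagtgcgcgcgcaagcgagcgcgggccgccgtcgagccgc

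Parp14, a large macrodomain PARP that acts with Stat6 in interleukin-4 responses, is the next member on chromosome 16, 54966 bases from Dtx3l, from 35832874 to 35871544 on the minus strand. It was at 105, 117, 119 and 110 CPM in CD40 day 2 and at 104 and 141 CPM in Kupffer day 0. The CD40 day 2 values fell between the Kupffer day 0 values. The log2 fold change of -0.10 ± 0.18 SE did not pass the test (edgeR adjusted p = 0.661), and its 95% interval was -0.51 to 0.30. It held 643 counts in CD40 day 2 and 282 in Kupffer day 0, and 1.57% of the 75-base windows at its 3' end also occur in Gm49730. Within a library there were 0.974, 1.0, 0.812 and 0.636 counts of Parp9 per count of Parp14 in CD40 day 2, and 0.530 and 0.198 in Kupffer day 0.

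Parp10, which attaches single ADP-ribose units and slows cell growth when overproduced, was at 64.6, 65.1, 66.9 and 50 CPM in CD40 day 2 and at 33.3 and 43.2 CPM in Kupffer day 0. Libraries a, b and c of CD40 day 2 lay close together, d lay lower, and none overlapped Kupffer day 0. The log2 fold change of 0.72 ± 0.22 SE was called (edgeR adjusted p = 0.0223), but not under 5 of 12 alternatives (range 0.0126 to 0.239). These were DESeq2 (0.0527), scaling by total counts (0.0641), a minimum of 10 counts in 4 libraries (0.0526), and the fits without CD40 day 2 c (0.0611) or Kupffer day 0 a (0.239). Parp10 lies on chromosome 15 from 76231174 to 76243441, minus strand. Its 3' end lies inside Plec, a gene on the same strand, over 1401 bases, and 7.84% of its 75-base windows there also occur in Plec. Plec, which encodes a cytoskeletal linker, was called lower, at 33.6 ± 4.41 CPM in CD40 day 2 (SD, n = 4) and 87.7 ± 17.7 CPM in Kupffer day 0 (SD, n = 2; edgeR adjusted p = 0.000426). The overlap lies at the start of Plec, whose own 3' end is at 76170974. With 3'-end counts the uncertainty bears on Parp10 first, and on Plec where reads of Parp10 were counted for it. The part of such reads was not tested.

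Log2 ratios within each library were compared for 4 pairs of members, chosen after their values were seen. With 4 against 2 libraries the smallest possible exact permutation p is 0.133, so no pair could pass. The p-values given here thus cannot decide whether a pair changed unequally, and the ratios are a description. The mean log2 ratio of Slfn2 to Slfn5 was -1.03 in CD40 day 2 and -4.64 in Kupffer day 0. The Kupffer day 0 ratios rest on 2 counts and 1 count of Slfn2, which passed the filter through CD40 day 2 alone. For Parp9 to Parp14 it was -0.25 in CD40 day 2 and -1.63 in Kupffer day 0, and for Parp12 to Parp14 -1.18 in CD40 day 2 and -2.66 in Kupffer day 0. In each of these 3 pairs the groups did not overlap (exact permutation p = 0.133, two-sided, the smallest that 4 against 2 libraries allow, and 0.177 adjusted over the 4 pairs). For Parp9 to Dtx3l the exact permutation p was 0.8 (0.8 adjusted).

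**Figure D3:**
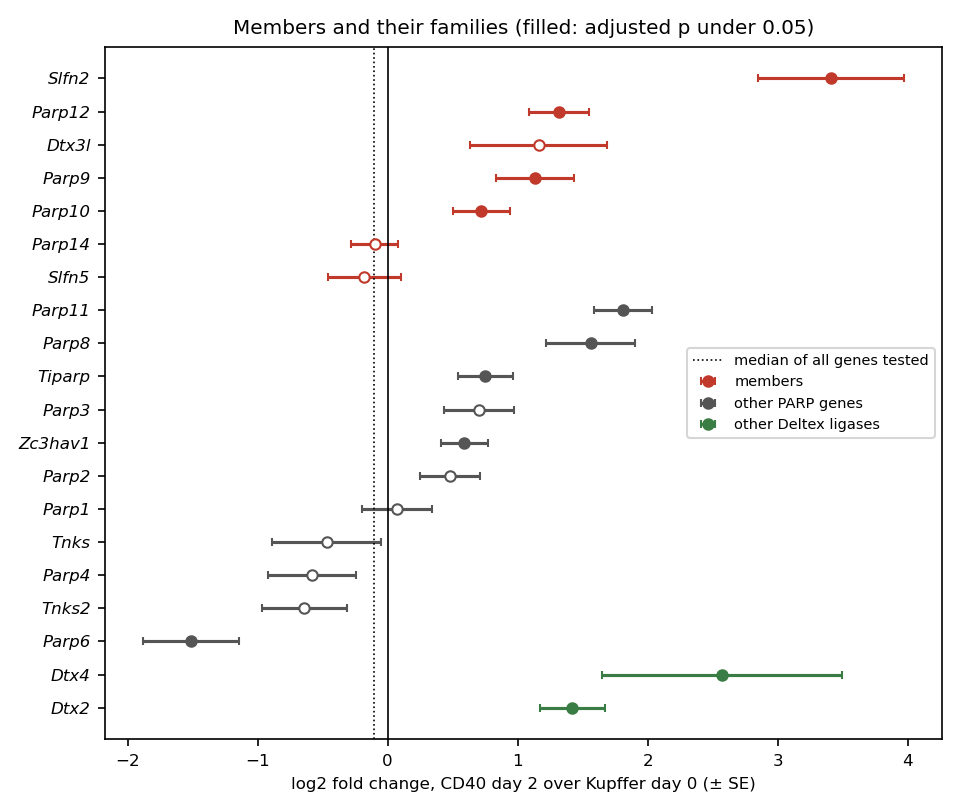
Log2 fold change, CD40 day 2 over Kupffer day 0 (horizontal axis, bars are the SE), for the 7 members tested (red), other PARP genes (grey) and other Deltex ligases (green); filled points have an edgeR adjusted p under 0.05 and the dotted line is the median of all genes tested. Slfn2 lies farthest to the right at 3.41 and Parp6 farthest to the left at -1.51.

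Of 11 other PARP genes tested, 4 were higher in CD40 day 2 (23.2% of all genes tested were), 1 lower (30.2% of all) and 6 not past the threshold, with a median log2 fold change of 0.48. Parp11, a nuclear-envelope PARP that attaches single ADP-ribose units, was at 74.6, 72.1, 67.4 and 63.7 CPM in CD40 day 2 and at 18.9 and 20.9 CPM in Kupffer day 0. All 4 CD40 day 2 libraries stood well above both others (log2 fold change 1.81 ± 0.22 SE, edgeR adjusted p = 8.69e-05). Parp8 was at 41.9, 26.9, 29.1 and 24.4 CPM in CD40 day 2 against 9.76 and 11.1 CPM in Kupffer day 0 (1.56 ± 0.34, adjusted p = 0.00334; 0.0624 without Kupffer day 0 a, the highest of the alternatives). Tiparp, a target of the aryl hydrocarbon receptor, averaged 151 ± 27.2 CPM in CD40 day 2 and 90.5 ± 1.93 CPM in Kupffer day 0 (0.75 ± 0.21, adjusted p = 0.0130), a call lost without either Kupffer day 0 library (up to 0.0939). The fourth, named after its values were seen, was Zc3hav1, an antiviral RNA-binding PARP without enzyme activity, at 92.1 ± 4.83 CPM in CD40 day 2 and 61.7 ± 5.28 CPM in Kupffer day 0 (0.59 ± 0.18, adjusted p = 0.0178), a call lost under 4 of 12 alternatives (up to 0.170), among them leaving out either Kupffer day 0 library. Parp6 was lower, at 5.58 ± 1.41 CPM in CD40 day 2 and 15.9 ± 2.74 CPM in Kupffer day 0 (-1.51 ± 0.37, edgeR adjusted p = 0.00620). Its call was lost where Kupffer day 0 a was left out (log2 fold change -1.68 to -1.29 over the alternatives), and it passed the filter through Kupffer day 0 alone.

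The Deltex ligases related to Dtx3l were represented by 4 rows, of which Dtx2 and Dtx4 were tested. Both were called higher in CD40 day 2, as were 23.2% of all genes tested. Dtx2 was at 64.6, 45.3, 60.5 and 54.2 CPM in CD40 day 2 and at 23.0 and 18.1 CPM in Kupffer day 0 (log2 fold change 1.42 ± 0.25 SE, edgeR adjusted p = 0.000866). Dtx4 was at 4.55, 8.49, 3.19 and 14.9 CPM in CD40 day 2 against 1.15 and 1.39 CPM in Kupffer day 0 (2.57 ± 0.92, adjusted p = 0.0389). Of the 8 alternatives that tested Dtx4, the call was lost with scaling by total counts and without either Kupffer day 0 library (adjusted p up to 0.259), and Dtx4 passed the filter through CD40 day 2 alone. Dtx1 and Dtx3 had too few counts for the test. Of the enzymes that remove ADP-ribose, 3 were tested and 1 was called higher (23.2% of all genes tested were). This was Adprh, which encodes the hydrolase that removes ADP-ribose from arginine. It was at 743 ± 72.3 CPM in CD40 day 2 and 459 ± 38.0 CPM in Kupffer day 0 (0.70 ± 0.16, edgeR adjusted p = 0.00517). The call was lost under 1 of 12 alternatives, where Kupffer day 0 a was left out (log2 fold change 0.54 to 0.79 over the alternatives). Parg, which cleaves ADP-ribose chains, and Adprhl2 did not pass.

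**Figure D4:**
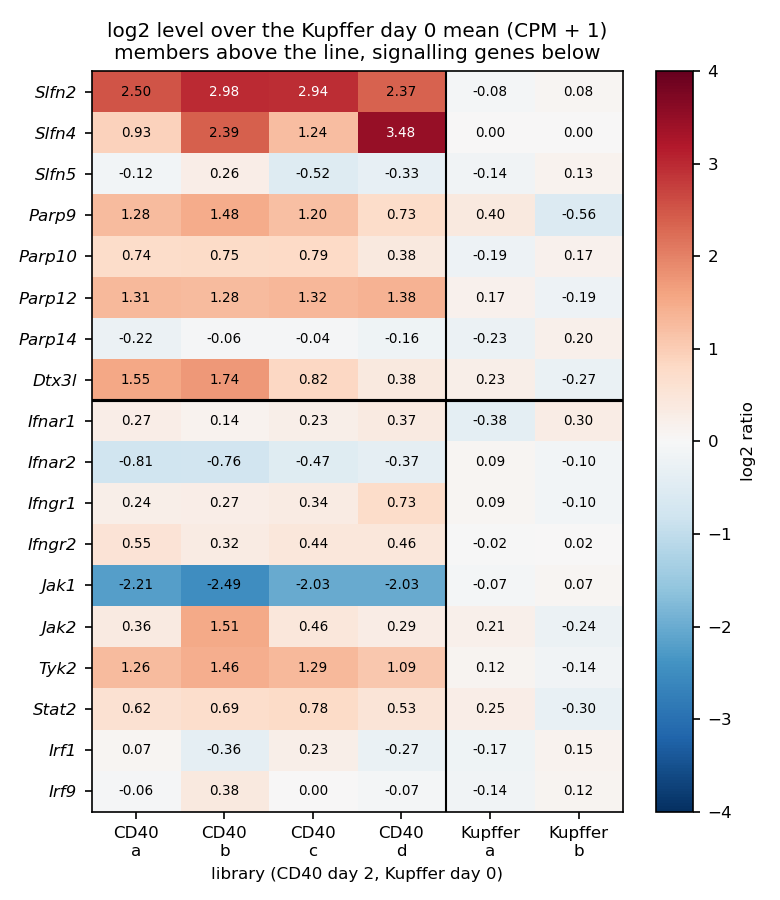
Log2 of the level over the Kupffer day 0 mean (CPM + 1) in each library (columns) for the 8 members with a count (above the line) and for interferon receptor and signalling genes (below). Slfn2 is high in every CD40 day 2 library, Jak1 is low in every one, and Parp14 stays near 0.

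Of 10 genes tested that carry interferon signals, 3 were higher in CD40 day 2 (23.2% of all genes tested were), 2 lower (30.2% of all) and 5 not past the threshold, with a median log2 fold change of 0.36. Stat2, a transcription factor of the type I response, averaged 106 ± 7.85 CPM in CD40 day 2 and 67.1 ± 18.0 CPM in Kupffer day 0 (log2 fold change 0.63 ± 0.20 SE, edgeR adjusted p = 0.0247), and lost its call under 4 of 12 alternatives (up to 0.207). Among those were the fits without CD40 day 2 c and without Kupffer day 0 b. Irf9, a DNA-binding factor of the same response, averaged 121 ± 19.3 CPM in CD40 day 2 and 115 ± 14.7 CPM in Kupffer day 0 and did not pass (0.08 ± 0.20, adjusted p = 0.767). The receptor kinase gene Tyk2 was higher (53.7 ± 5.66 CPM in CD40 day 2 against 21.5 ± 2.86 CPM in Kupffer day 0, 1.27 ± 0.23, adjusted p = 0.00109). The kinase gene Jak1 was lower, at 224, 184, 254 and 254 CPM in CD40 day 2 and 990 and 1090 CPM in Kupffer day 0 (-2.18 ± 0.17, adjusted p = 5.68e-06). Ifnar2, a chain of the type I receptor, was lower too, at 104 ± 15.8 CPM in CD40 day 2 and 157 ± 15.1 CPM in Kupffer day 0 (-0.59 ± 0.19, adjusted p = 0.0227), a call lost by DESeq2 and without either Kupffer day 0 library (up to 0.190). The third called higher, named after its values were seen, was Ifngr2, a chain of the interferon gamma receptor. It was at 379 ± 24.8 CPM in CD40 day 2 and 278 ± 6.26 CPM in Kupffer day 0 (0.45 ± 0.15, edgeR adjusted p = 0.0311). Its call was lost under 8 of 12 alternatives (log2 fold change 0.28 to 0.55 over the alternatives). Among those were the fits without either Kupffer day 0 library or CD40 day 2 a, c or d.

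Genes whose pattern over the 6 libraries came closest to the median profile of the 7 tested members were sought among all genes tested, by the root mean square distance of centred log2(CPM + 1) values. The 5 nearest were Plekha2, Eif4e, Taf13, Psmg3 and Acsl4, at distances of 0.105, 0.109, 0.116, 0.122 and 0.125. Plekha2 was at 79.2, 72.1, 66.0 and 58.4 CPM in CD40 day 2 and at 41.3 and 27.9 CPM in Kupffer day 0. Among the members themselves the distance was 0.2 for Parp9, 0.248 for Parp12, 0.313 for Parp10 and 0.332 for Dtx3l. It was 0.629 for Parp14, 0.659 for Slfn5 and 0.825 for Slfn2, the farthest. Every tested member lay farther from this profile than the 5 genes named. Since those were picked as the nearest of all genes tested, this cannot decide whether the members share a profile.

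**Figure D5:**
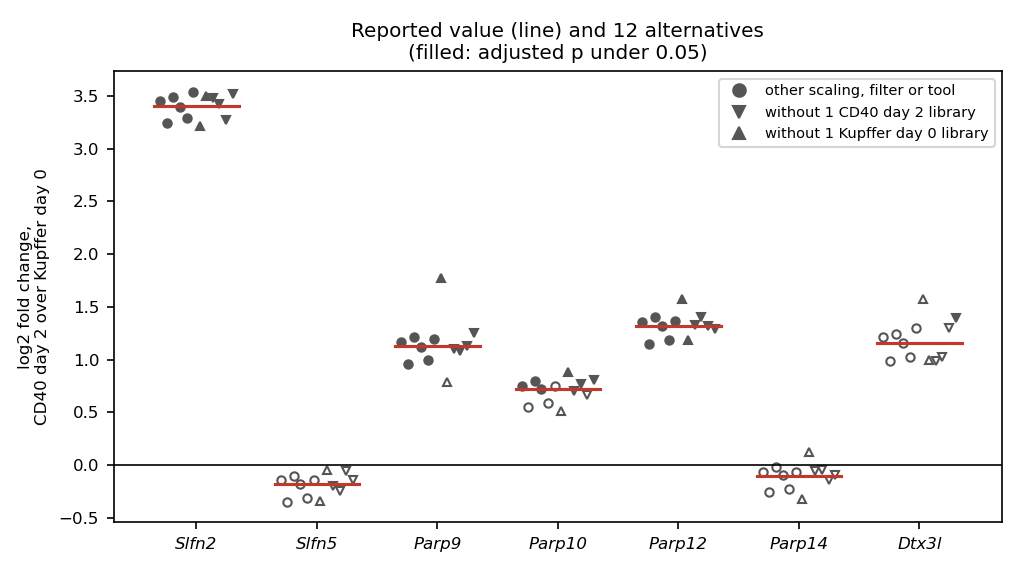
Log2 fold change, CD40 day 2 over Kupffer day 0 (vertical axis), of each tested member as reported (red line) and under 12 alternatives (symbols, filled where the adjusted p was under 0.05). Slfn2 and Parp12 stay called in all 12, Parp10 loses its call in 5, and Parp14 lies on either side of 0.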

How the data were processed

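Per the labels' protocols, reverse transcription tagged every sample with its own barcode and with unique molecular identifiers, and libraries were read from the 3' end over 75 bases. The values deposited by the authors are unnormalized counts for each gene symbol. The submitters' processing notes name GRCm38.p6 as build and DESeq2 1.22.2 as tool. Which aligner and annotation served, and whether molecular identifiers were collapsed, is not given in the sources used here.

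Columns carry a group name but no replicate number, so the letters are names only. Library pairs within a group differed by more than counting error (chi-square over its degrees of freedom 3.17 to 11.7). The 6 libraries were fitted with edgeR 4.0.16 (quasi-likelihood test, TMM, default filterByExpr, R 4.3.3), two-sided, with Benjamini-Hochberg adjustment over all 9852 genes. The SE of a log2 fold change is its size over the square root of F, and its 95% interval is approximate. The script was tested on simulated data. DESeq2 1.42.0 was an alternative. Intervals and floors cover counting error only, and the floor used for Slfn4 only that of Kupffer day 0.

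All 10 members were named. From each of 8 lists of related genes, called genes without overlap were named, up to 3 per direction in order of adjusted p, and Cd40, Ly6c2, Clec4f, Stat2 and Irf9 whatever their values. A gene of the interferon signalling list is not reported here and was left out of that list's counts. The members and lists were chosen with earlier results of these data known. Positions and overlaps come from GENCODE vM21 on GRCm38.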

Additional observations from a re-analysis of the deposited data

Results flagged for a closer look

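In Parp10, library d of CD40 day 2 stood apart from the others, at 50 CPM beside 64.6 to 66.9 CPM in a, b and c. Its gap to the next library was 0.864 of the range of the group, above Dixon's 95% critical value for 4 samples. Chance flags about 1 in 20 groups, and 8 members were examined. Without this library the log2 fold change of Parp10 was 0.81 (edgeR adjusted p = 0.0126, range over the alternatives 0.0126 to 0.239).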

How the results depend on the processing

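No paired analysis was possible because the columns carry no replicate numbers. In all, 2288 genes were called higher, 2974 lower and 5262 together. Leaving out each library in turn gave 1406 to 2551 higher, 1800 to 2963 lower and 3206 to 5514 together, the lowest without Kupffer day 0 a, where 1 library is assumed to vary like the others. Scaling by total counts moved the median log2 fold change of all genes from -0.10 to -0.27. Parp14 changed sign without Kupffer day 0 b (0.12, against -0.10), and the cause was not tested. Its other values lay between -0.32 and -0.02, and those of Slfn5 between -0.35 and -0.05. The other calls that changed, for Parp9, Parp10 and Dtx3l, are given with those genes. With 3 counts of Slfn2 and 0 of Slfn4 in Kupffer day 0, depth limits the size of both differences.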

Other observations

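NAD, the substrate of PARP enzymes, is also cleaved by the surface enzymes encoded by Bst1 and Cd38, close relatives that differed between the groups in opposite directions. Bst1 was at 230, 110, 209 and 182 CPM in CD40 day 2 and at 11.5 and 18.1 CPM in Kupffer day 0 (log2 fold change 3.72 ± 0.38 SE, edgeR adjusted p = 3e-05). Cd38 was at 283, 132, 220 and 207 CPM in CD40 day 2 and at 481 and 487 CPM in Kupffer day 0 (-1.19 ± 0.24, adjusted p = 0.00233). Both calls were kept under all 12 alternatives. Library b of CD40 day 2 was the lowest of its group for both genes.

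Of the genes that make NAD, 2 of 7 with a row were tested, Naprt and Nmnat1, and neither passed. Of 8 interferon genes listed, 3 had a row, namely Ifnb1, Ifng and Ifna2, and none was tested. The other genes of this list are not analysed here. Ifna2 held 0 counts in all 6 libraries. Ifnb1 held 3, 0, 31 and 0 counts in CD40 day 2 and 0 in Kupffer day 0, so library c carried 31 of 34 counts. Ifng held 2, 0, 6 and 1 counts in CD40 day 2 and 2 and 0 in Kupffer day 0.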
